A study of Homo sapiens with 4 samples.

Results

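The COP9 signalosome subunits were measured by 19 probe sets of 9 genes, GPS1, COPS2, COPS3, COPS4, COPS5, COPS6, COPS7A, COPS7B and COPS8, among 40914 probe sets of 19774 genes that name exactly 1 gene. A probe set is a group of short probes for a single transcript, and a member was taken when the platform annotation names a listed gene and no other. GPS1, COPS3, COPS5 and COPS7A have 1 probe set each, COPS2, COPS4 and COPS6 have 2, COPS7B has 3 and COPS8 has 6. Below, the probe sets of a gene are numbered from the brightest.

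RNA came from DU145, an established androgen-insensitive prostate carcinoma cell line. The 4 arrays comprise 2 of control cells carrying an shRNA against GFP (shGFP) and 2 of cells carrying an shRNA against DCUN1D1 (shDCUN1D1), all transduced with lentivirus and described as biological duplicates. The series record calls the cells stable lines, whereas the methods describe RNA taken a few days after infection, with no selection step named. More than 1 shRNA sequence for DCUN1D1 appears in the methods, and which of them a given knockdown array carried is not stated. In RNA of a whole culture, less transcript in every cell and fewer cells that carry it cannot be told apart.

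The COP9 signalosome removes NEDD8 from cullins, the scaffolds of the cullin-RING ubiquitin ligases. DCUN1D1 acts in the opposite direction by helping to attach NEDD8. Cycles of attachment and removal let the ligases exchange their substrate receptors. The complex is built from subunits with a PCI domain, which form its scaffold, and a pair with an MPN domain. COPS5 is the metalloprotease of that pair and COPS6 its partner, which lacks the metal site. COPS7A and COPS7B are paralogs that take the same place in the complex.

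GPS1 was the member with lower signal in the knockdown past the fold bound, while a probe set of COPS4 and another of COPS6 were higher past it. A probe set was called past the fold bound when the lower end of the 90% confidence interval of its fold change, from limma's standard error, exceeded 1.2 in either direction. By this rule 3 of the 19 probe sets were called in either direction, beside 3.56% of all. Split by direction, 2 were higher, beside 1.18% of all probe sets, and 1 was lower, beside 2.38%. Over all 40914 probe sets 481 were higher and 974 lower, which became 1782 and 694 when each array was centred on its bright probe sets. Limma's p, with Benjamini–Hochberg adjustment over all probe sets, was under 0.05 for 0 members and for 0% of all probe sets, and at an unadjusted p under 0.05 limma gave 2 members higher and 1 lower, beside 2.3% and 5.25% of all. The methods' t-test gave 0 higher and 2 lower at the same unadjusted level, beside 1.94% and 5.22% of all, and 0 members after adjustment, beside 0.00244%. An exact two-sided permutation test of 2 arrays against 2 cannot give a p below 0.333. With 2 arrays a group, precision is set by that number.

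The arrays did not behave alike. Knockdown replicate 1 correlated at 0.66 to 0.75 over the probe sets with the other arrays, which correlated at 0.83 to 0.92 with each other. These correlations run across probe sets, which share arrays and are no replicates. The control probe set for the 3′ end of GAPDH, a housekeeping enzyme, read 10.8 in knockdown replicate 1, beside 5.02 and 4.68 in the shGFP arrays and 5.09 in knockdown replicate 2, and its part in the results was not tested. The array carries nonspecific controls, background probes grouped by their G and C content. The control whose probes hold 20 G or C bases (the 20 G/C control) read 2.97 and 3.30 in the shGFP arrays and 2.48 and 2.51 in the knockdown arrays, so background itself differed between the groups. The share of probe sets above it was 8.97% and 6.07% in the shGFP arrays against 18.7% and 14.5% in the knockdown arrays. Of 23 such controls, 20 were lower in both knockdown arrays than in both shGFP arrays, and the median log2 difference of the 23 was −0.29. The level of the 20 G/C control is used as the background level here, and 8 of the 19 member probe sets lay under it in every array, as did 76.1% of all probe sets. The targeted gene, DCUN1D1, lay under it too: its brightest probe set read 2.55 and 1.99 with shGFP and 1.60 and 1.45 with shDCUN1D1, a log2 difference of −0.75 (standard error 0.26, adjusted p = 0.62 from limma) that was not past the bound. The other 5 DCUN1D1 probe sets had log2 differences of −0.47 to 0.12 and also lay under the background level in every array. Signal under background does not give the size of the knockdown. The paper reports significantly reduced DCUN1D1 in DU145 cells, in mRNA by real-time PCR and in protein by Western blot.

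Epithelial markers of this carcinoma line were for the most part at background. Of 5 such markers, KRT8 was above the background level in all 4 arrays and 3 were above it in none, and KRT18 read 1.68 and 1.63 with shGFP and 7.62 and 1.69 with shDCUN1D1. The summed log2 signal of the 5 was 10.9 and 12.5 with shGFP and 16.4 and 10.8 with shDCUN1D1. Of 4 fibroblast markers, COL1A1 was above the level in all arrays and 3 in none, with sums of 8.46 to 9.75 in the controls and 8.43 to 9.76 in the knockdown. All 3 endothelial and 3 leukocyte markers measured were under it in all arrays. Of 5 androgen-driven prostate markers 3 were measured, with sums of 7.22 to 8.46 in the controls and 7.25 to 8.09 in the knockdown. TMPRSS2 was above the level in 3 arrays, KLK3 in 1 and KLK2 in 0. The part of these markers in the results was not tested.

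The sequences before the first listed transcription start of the 3 genes past the bound are shown, since these genes differ in direction. Each is 250 bases of GRCh38.p14 from RefSeq, written 5′ to 3′ on the gene's strand, which is the plus strand for GPS1 (chr17:82050682-82050931), COPS4 (chr4:83034933-83035182) and COPS6 (chr7:100088719-100088968). Capitals mark a CCAAT box (CCAAT) or the core of the site of ETS factors (CGGAAG), on either strand.
GPS1: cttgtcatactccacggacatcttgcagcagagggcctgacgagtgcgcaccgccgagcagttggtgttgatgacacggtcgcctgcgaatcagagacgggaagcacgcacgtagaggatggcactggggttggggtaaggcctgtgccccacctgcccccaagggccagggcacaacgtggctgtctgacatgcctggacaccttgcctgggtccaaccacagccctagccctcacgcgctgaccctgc
COPS4: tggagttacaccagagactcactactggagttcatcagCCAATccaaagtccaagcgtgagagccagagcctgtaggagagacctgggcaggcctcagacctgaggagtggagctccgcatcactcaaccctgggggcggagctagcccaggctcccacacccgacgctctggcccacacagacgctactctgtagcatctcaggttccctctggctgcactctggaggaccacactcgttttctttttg
COPS6: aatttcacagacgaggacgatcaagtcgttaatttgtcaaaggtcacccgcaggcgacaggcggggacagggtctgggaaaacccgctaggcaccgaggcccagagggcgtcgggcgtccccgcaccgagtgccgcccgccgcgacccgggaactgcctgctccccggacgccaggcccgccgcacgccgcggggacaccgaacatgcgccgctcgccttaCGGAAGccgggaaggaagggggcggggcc
The COPS6 window holds the ETS core, the COPS4 window a CCAAT box and the GPS1 window neither. Windows were found for 8 members. Of the 3 starts listed for GPS1, the most downstream has an ETS core before it. The second listed start of COPS7B also has the ETS core, that of COPS7A an E-box and that of COPS3 the ETS core and a CCAAT box. At the first listed start, 3 of the 8 members have the ETS core, COPS3, COPS6 and COPS7A, as have 16.8% of 27305 promoters. A CCAAT box stands in 4, COPS2, COPS4, COPS7A and COPS8, and in 33% of all promoters. The NRF1 site, the cAMP response element (TGACGTCA) and the E-box (CACGTG) were in 0 of the 8 at that start, and in 1.13%, 1.77% and 6.49% of all. These motifs do not overlap each other in the windows. A match is a description of letters and not of binding.

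**Figure D1:**
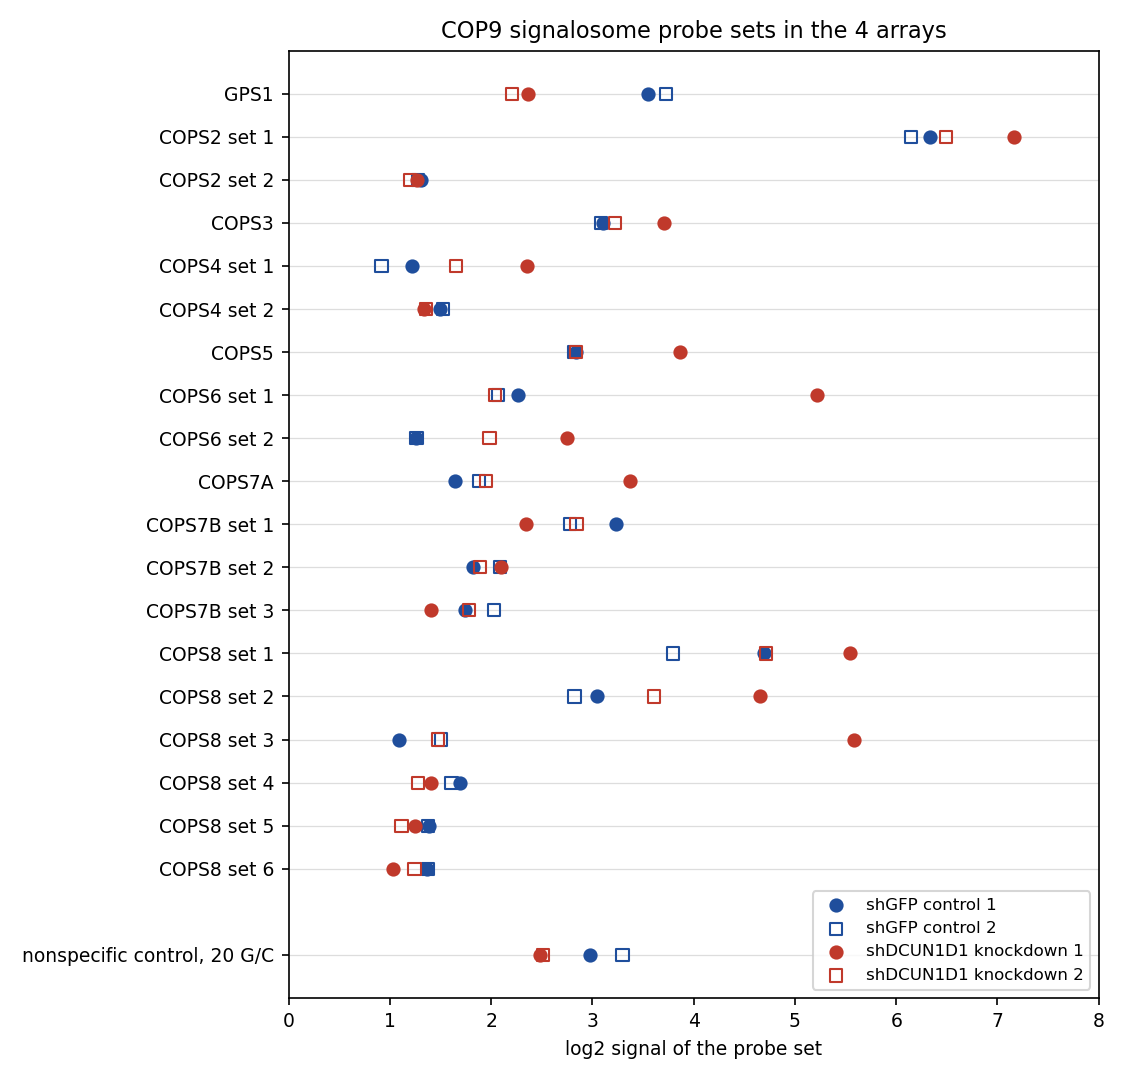
Log2 signal (horizontal axis) of the 19 COP9 signalosome probe sets, 1 row each, in the 4 arrays. Blue marks shGFP and red shDCUN1D1, with circles for replicate 1 and open squares for replicate 2. GPS1 reads 3.55 and 3.72 with shGFP and 2.37 and 2.21 with shDCUN1D1, and the bottom row gives the nonspecific 20 G/C control.

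GPS1, the PCI subunit also called CSN1, is needed for assembly of the complex. It read 3.55 and 3.72 with shGFP (replicates 1 and 2) and 2.37 and 2.21 with shDCUN1D1. The groups do not overlap, and the 2 arrays of each group lie closer to each other than to any array of the other group. The mean log2 signal was 3.64 ± 0.12 (SD, n = 2) with shGFP and 2.29 ± 0.12 (SD, n = 2) with shDCUN1D1. This is a log2 difference of −1.35 (standard error 0.34, adjusted p = 0.62 from limma), which is a signal lower by 60.8%. Leaving out any 1 array gave −1.44 to −1.26, all past the bound. GPS1 lay 0.58 and 0.43 above the background level in the controls and 0.11 and 0.30 below it in the knockdown arrays. Since both knockdown values lay below background, −1.35 is a difference of the deposited values and not a measured level after knockdown. With every array centred on its nonspecific 20 G/C control, an alternative chosen after seeing the data, the log2 difference was −0.71 and no longer past the bound.

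GPS1 was also set against the other members within arrays, a contrast that was chosen with its lower signal known and gives no independent support. Its log2 signal minus the mean of the brightest probe sets of the other 8 genes was 0.38 and 0.79 with shGFP and −1.83 and −1.01 with shDCUN1D1. The signals of the other 8 in knockdown replicate 1, COPS6 at 5.22 among them, enter this value. The exact permutation p of 0.333 (two-sided) for the difference of −2.01 is the smallest that the design allows. It is the first of 3 such contrasts computed, and no p of the 3 could pass 0.05.

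Of the MPN pair, COPS5, the metalloprotease that cuts NEDD8 from cullins, read 2.84 and 2.82 with shGFP and 3.87 and 2.84 with shDCUN1D1. Knockdown replicate 1 is alone in standing apart, and knockdown replicate 2 reads as the controls do in log2 signal. Both control values lay under the background level of their arrays, and both knockdown values lay above it. The log2 difference was 0.52 (standard error 0.48, adjusted p = 0.69 from limma), and 0.01 without knockdown replicate 1.

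COPS6, the MPN partner of COPS5, has 2 probe sets, and both read most in knockdown replicate 1. Probe set 1 read 2.26 and 2.07 with shGFP and 5.22 and 2.04 with shDCUN1D1, with a log2 difference of 1.46 (standard error 1.05) that turned to −0.12 without knockdown replicate 1. Probe set 2 read 1.26 and 1.26 with shGFP and 2.75 and 1.98 with shDCUN1D1, and its groups do not overlap. Its log2 difference of 1.11 (standard error 0.30, adjusted p = 0.62 from limma) was past the bound, and was 0.72 without knockdown replicate 1, past the bound as well. Without either control array it was 1.11 and not past the bound. This probe set was above the background level in knockdown replicate 1 and under it in the other 3 arrays. COPS5 minus COPS6, on the brightest probe sets, was 0.58 and 0.75 with shGFP and −1.35 and 0.80 with shDCUN1D1, so that knockdown replicate 1 alone departs (exact permutation p = 1, two-sided).

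**Figure D2:**
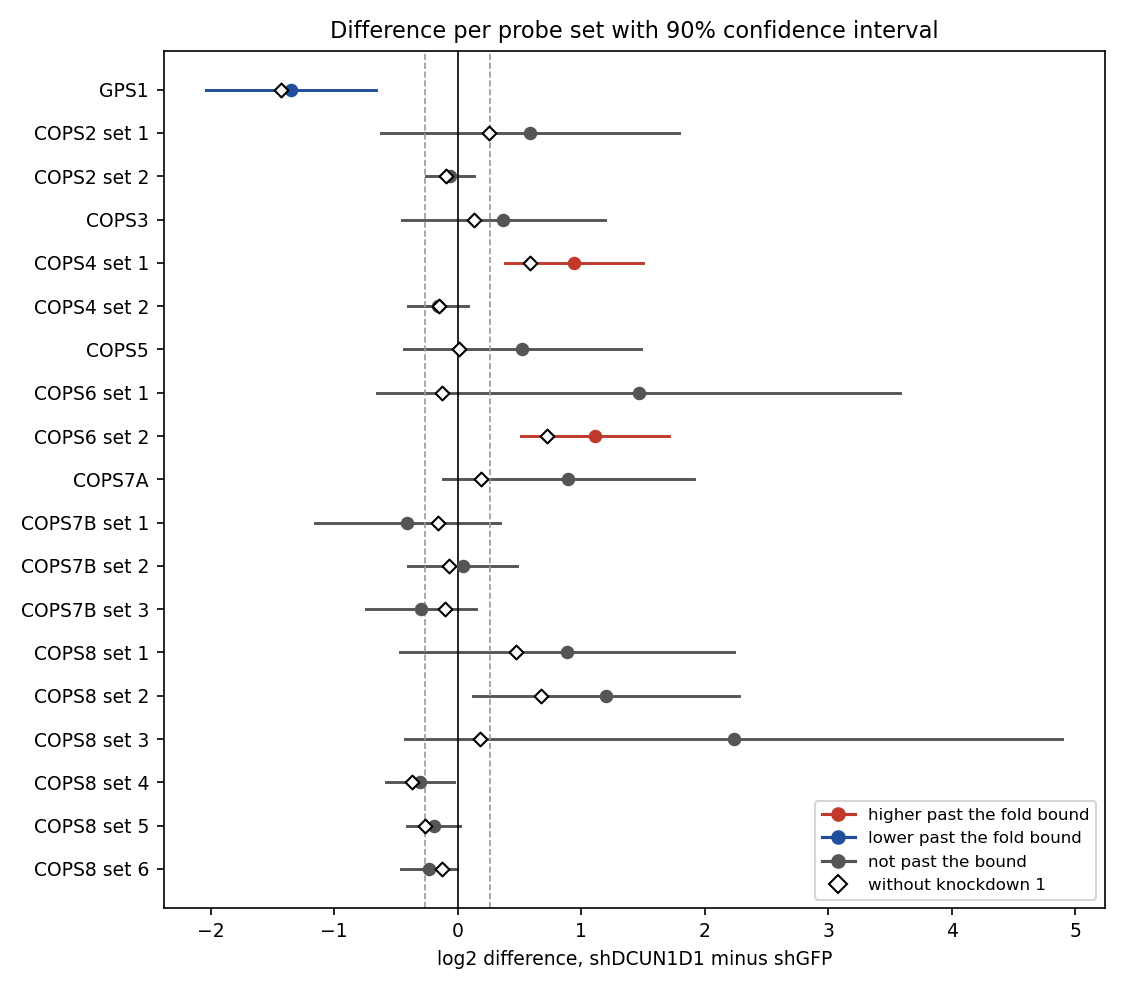
Log2 difference, shDCUN1D1 minus shGFP (horizontal axis), of each member probe set as a filled point with its 90% confidence interval from limma, red for higher and blue for lower past the fold bound and grey otherwise. Dashed lines mark a fold of 1.2, and open diamonds give the difference without knockdown replicate 1, which is −1.43 for GPS1 and 0.01 for COPS5.

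Among the PCI subunits, COPS2, which was first found as a protein that binds the thyroid hormone receptor, had the brightest probe set of all members. It read 6.34 and 6.15 with shGFP and 7.16 and 6.50 with shDCUN1D1. Both knockdown arrays lie above both controls, and the group means had a log2 difference of 0.59 (standard error 0.60, adjusted p = 0.72 from limma). It was 0.25 without knockdown replicate 1. The sign turned to −0.36 under quantile normalization. Probe set 2 of COPS2 read at most 1.31 in every array, under the background level, with a log2 difference of −0.06. The genes whose brightest probe sets were nearest to COPS2 probe set 1, by the mean absolute difference of log2 signal over the 4 arrays, were RPL11 at 0.18, PDIA3 at 0.18 and ATP5MG at 0.20.

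COPS3, a PCI subunit, read 3.11 and 3.09 with shGFP and 3.71 and 3.23 with shDCUN1D1. The groups do not overlap, and the log2 difference was 0.37 (standard error 0.41), or 0.13 without knockdown replicate 1.

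COPS4, the PCI subunit that contacts the MPN pair and takes part in sensing a bound cullin, read 1.22 and 0.92 with shGFP and 2.36 and 1.65 with shDCUN1D1 on probe set 1. Both knockdown arrays were higher, and all 4 values lay under the background level. The log2 difference of 0.94 (standard error 0.28, adjusted p = 0.62 from limma) was past the bound. It was 0.59 without knockdown replicate 1, still past the bound, and 0.79 without control replicate 2, not past it. Probe set 2 of COPS4 gave the opposite sign, reading 1.49 and 1.52 with shGFP and 1.34 and 1.36 with shDCUN1D1 and a log2 difference of −0.16. The mean over both probe sets had a log2 difference of 0.39 and was not past the bound.

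The paralogs COPS7A and COPS7B had differences of opposite sign on their brightest probe sets, neither past the bound. COPS7A read 1.65 and 1.88 with shGFP and 3.37 and 1.95 with shDCUN1D1, a log2 difference of 0.90 (standard error 0.50) that was 0.19 without knockdown replicate 1. COPS7B probe set 1 read 3.23 and 2.78 with shGFP and 2.35 and 2.84 with shDCUN1D1. Its groups overlap, and its log2 difference was −0.41 (standard error 0.37), with −0.66 to −0.16 when 1 array was left out. COPS7A minus COPS7B was −1.58 and −0.90 with shGFP and 1.02 and −0.89 with shDCUN1D1 (exact permutation p = 0.333, two-sided). Knockdown replicate 1 lies above the other 3 arrays, and knockdown replicate 2 next to control replicate 2. COPS7A was above the background level in knockdown replicate 1 only. COPS7B probe set 1 was above it in control replicate 1 and knockdown replicate 2 only. The other COPS7B probe sets had log2 differences of 0.04 and −0.30.

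COPS8, the smallest PCI subunit of the core, has 6 probe sets, 3 with positive and 3 with negative differences. Probe set 1 read 4.69 and 3.79 with shGFP and 5.54 and 4.71 with shDCUN1D1, a log2 difference of 0.88 (standard error 0.67), or 0.47 without knockdown replicate 1. The groups meet but do not overlap, since control replicate 1 and knockdown replicate 2 lie side by side. Probe set 2 read 3.04 and 2.82 with shGFP and 4.65 and 3.61 with shDCUN1D1. Its groups do not overlap, and its log2 difference of 1.2 (standard error 0.54, adjusted p = 0.62 from limma) fell short of the bound, with a lower fold limit of 1.09, and was 0.67 without knockdown replicate 1. Probe set 3 had the highest difference of all members, 2.23 (standard error 1.32), which rests on knockdown replicate 1: it read 5.59 there, 1.48 in knockdown replicate 2 and 1.09 and 1.51 in the controls. Without that array it was 0.18. Probe sets 4 to 6 read 1.04 to 1.69 in all arrays, under the background level, with log2 differences of −0.31 to −0.20. The mean over the 6 was 0.60 and not past the bound.

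Knockdown replicate 1 was the highest of the 4 arrays for 11 of the 19 member probe sets, against 21.7% of all probe sets. It lay more than 1 log2 above the mean of the other arrays for 8 of them, against 7.9% of all. The median log2 difference of the 19 was 0.37, beside −0.01 over all probe sets, and under quantile normalization it was 0.020 beside 0.00082. Without knockdown replicate 1 it was −0.07, beside 0.01. Under background in every array lay 76.1% of all probe sets and 8 of the 19. Among those above background in both arrays of a group, a filter on the same values, the median was 0.56 for members and 0.19 for all. On the brightest probe set of each of the 9 genes, 7 differences were positive, with a median of 0.59 beside −0.01 over all genes. Without knockdown replicate 1, 6 were positive and the median was 0.13 beside 0.01. In 8 probe sets both knockdown arrays were above both controls, beside 17.9% of all, and in 6 both were below, beside 25%. Without knockdown replicate 1 the calls remained COPS4 probe set 1 and COPS6 probe set 2 as higher, beside 2.94% of all probe sets, and GPS1 as lower, beside 2.15%, or 3 in all beside 5.09%. Of the 8 probe sets that the annotation ties to a RefSeq mRNA, 6 had positive differences, and of the other 11, 5 had. Over the 19, 11 were positive, beside 48.3% of all probe sets. Without knockdown replicate 1, 9 of the 19 were positive, beside 50.7%.

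**Figure D3:**
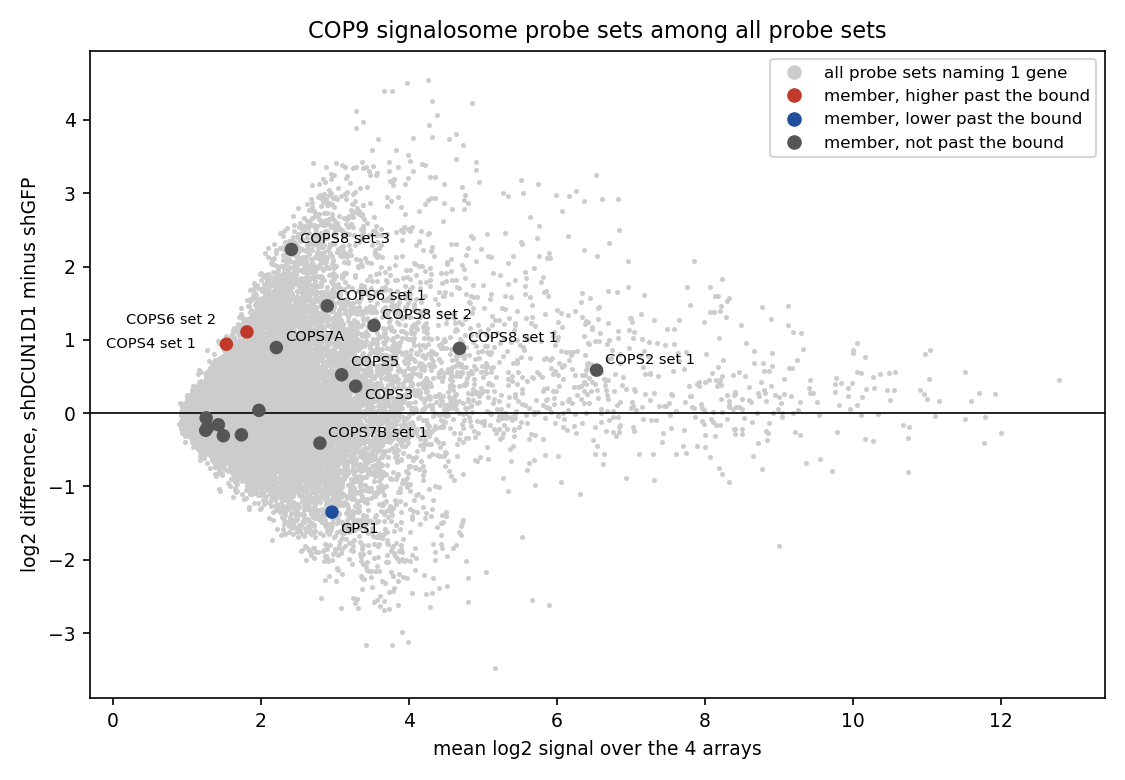
Log2 difference, shDCUN1D1 minus shGFP (vertical axis), by mean log2 signal of the 4 arrays (horizontal axis) for all 40914 probe sets naming 1 gene in grey and the 19 member probe sets in colour, red for higher, blue for lower and dark grey for not past the bound. GPS1 lies at −1.35, COPS4 and COPS6 probe sets past the bound sit at the dim end, and COPS2 is the brightest member.

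Related genes were read on the brightest probe set of each gene, where the bound called 1.57% of all genes higher and 3.64% lower, and 0% had an adjusted p under 0.05. Of 23 genes of the neddylation and cullin-RING core, 22 were measured, and 0 were higher and 0 lower. Their median log2 difference was 0.24, or −0.07 without knockdown replicate 1. The proteasome lid and the translation initiation factor eIF3 are built like the signalosome from PCI and MPN subunits. Of 9 lid subunits 7 were measured, and 1 was higher and 0 lower: PSMD12 read 1.74 and 1.39 with shGFP and 5.27 and 2.57 with shDCUN1D1, a log2 difference of 2.35 (standard error 0.92, adjusted p = 0.59 from limma). It was 1.01 without knockdown replicate 1, past the bound too, and 2.53 and 2.18 without control replicates 1 and 2, not past it. PSMD12 was above background in both knockdown arrays and under it in both controls. The median of the 7 was 0.59, or 0.05 without that array. Of 8 eIF3 subunits 0 were past the bound, with medians of 0.70 and 0.08.

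Of 8 partners of the signalosome, 1 was higher and 0 lower. DDB1, the adaptor of CUL4 ligases, read 1.77 and 1.81 with shGFP and 2.92 and 2.41 with shDCUN1D1, a log2 difference of 0.88 (standard error 0.28, adjusted p = 0.59 from limma). It was above background in knockdown replicate 1 and under it in the other 3 arrays. It was no longer past the bound without knockdown replicate 1 (0.62), without control replicate 1 (0.85) or without control replicate 2 (0.90). The median of the 8 was 0.67, or 0.38 without that array. COPS9, a small acidic subunit outside the member list, is counted among these 8 and was singled out after its values were seen. On its brighter probe set it read 1.51 and 1.92 with shGFP and 4.57 and 1.64 with shDCUN1D1. Knockdown replicate 1 again stands alone there, and the log2 difference of 1.39 (standard error 0.98) was −0.08 without it. Among the 9 signalosome genes on their brightest probe sets, 1 was higher, COPS4, and 1 lower, GPS1. In this fit over genes, COPS4 was not past the bound without knockdown replicate 1 (0.59), control replicate 1 (1.09) or control replicate 2 (0.79), and GPS1 stayed past it without any 1 array.

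**Figure D4:**
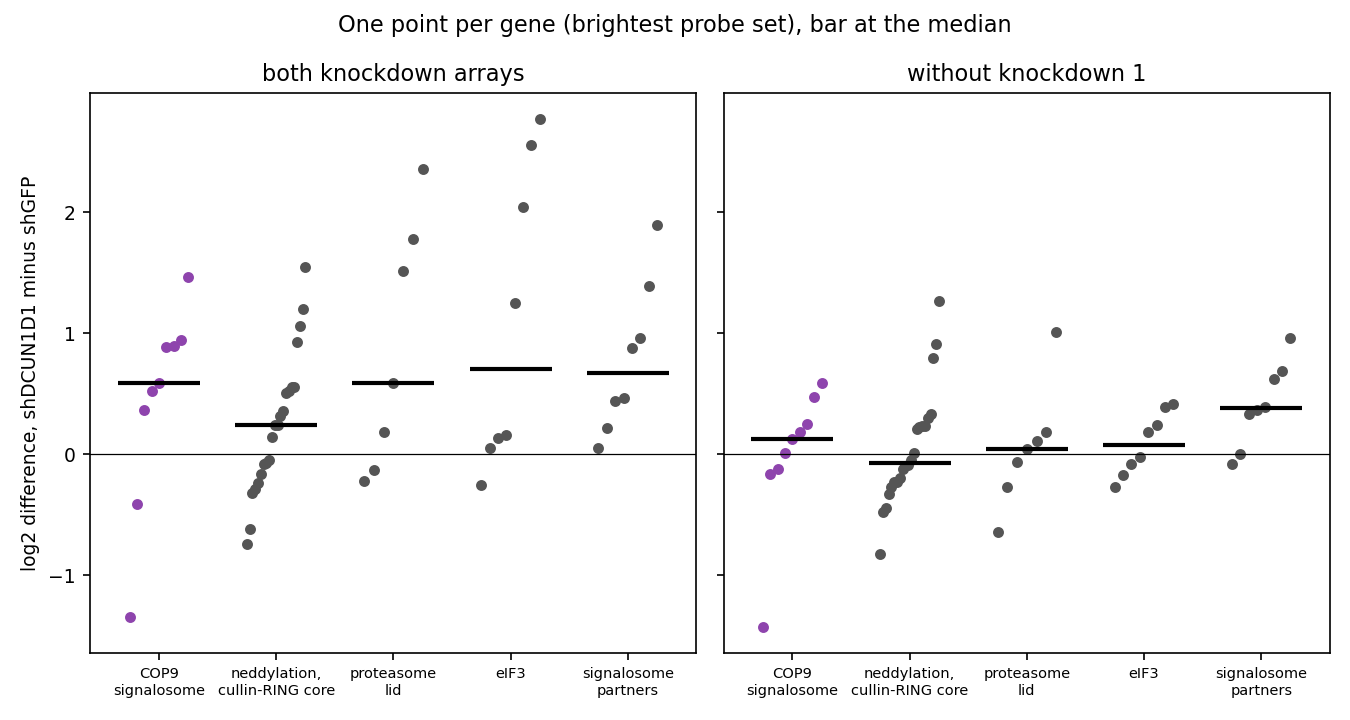
Log2 difference, shDCUN1D1 minus shGFP (vertical axis), on the brightest probe set of each gene, 1 point per gene, with bars at the medians, for the COP9 signalosome (purple) and 4 related lists. The left panel uses both knockdown arrays and the right leaves out knockdown replicate 1, where the signalosome median is 0.13 in place of 0.59 and GPS1 stays the lowest of its list at −1.43.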

How the data were processed

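The authors deposited a table of log2 signal values, with a value per probe set and array, without replicate averaging. Affymetrix Expression Console is listed in the submitters' processing notes, dChip with a smoothing spline in the paper's methods, and the sources do not state which of them gave these values. The log2 scale was inferred from their range. Names of genes come from the platform annotation, and 40858 of 40914 matched the RefSeq gene table (GRCh38.p14) by gene ID. Those naming several genes (864) or none (12835) and 102 controls were left out. No scaling or filter was added. Limma (version 3.58.1, R 4.3.3) with a variance trend was fitted to all 40914 probe sets, knockdown minus control, and for related genes to the brightest probe set of each of 19774 genes. The fold bound follows the methods' rule of 90% and 1.2 with limma in place of dChip. Probe sets were averaged per gene only as an alternative. Members, lists and rules were chosen with earlier results of these data known. Named are all member probe sets, DCUN1D1, listed genes past the bound (at most 4 a list and direction) and the 3 genes nearest to the brightest member. Also named are the marker genes KRT8, KRT18, COL1A1, TMPRSS2, KLK2 and KLK3, picked with their values in view. The main limma fit was also run on simulated data with known changes. That run covered none of the alternatives. Alternatives covered scaling, filters, probe set choice, variance model, test, replicate block, each array left out and thresholds.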

Additional observations from a re-analysis of the deposited data

How the results depend on the processing

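Of the 20 alternatives that give GPS1 a value, 19 kept it lower by their own rule. These are no independent tests, and some could not fail. The lower limit over 1 and the plain fold over 1.2 follow from the main call. The methods' t-test used p under 0.05 in place of the bound. GPS1 passed the background filter through its shGFP arrays alone. Of the 19 member probe sets, 2 were higher in the main fit, beside 481 of all 40914. With centring on bright probe sets 4 were higher, beside 1782, and at a plain fold over 1.2 there were 10, beside 8664. Among probe sets above the median signal it was 1, beside 369 of 20457. Among those above background in both arrays of a group it was 0, beside 327 of 4685. The brightest probe set per gene gave 1, beside 311 of 19774 genes, and the mean per gene 0, beside 172. No moderation gave 0, beside 297 of 40914, and the methods' t-test 0, beside 794. The number of lower members was 1 in the main fit, beside 974 of all 40914. It became 2 by the methods' t-test, beside 2134, and 3 with a lower limit over 1, beside 4076. At a plain fold over 1.2 it was 4, beside 7562. Members with an adjusted p under 0.05, 0 at first, were 1 with centring on bright probe sets. That was COPS8 probe set 3, whose difference rests on knockdown replicate 1. With 1 array left out, the lone array of a group is assumed to vary like the others. Leaving out knockdown replicate 2 keeps knockdown replicate 1, which departs from the other arrays, as the only knockdown array. The median difference, 0.37, was 0.020 under quantile normalization. It was −0.068 without knockdown replicate 1 and 0.61 without knockdown replicate 2. Related genes higher past the bound, 2 at first, were 9 with centring on bright probe sets and 0 to 16 when 1 array was left out, and lower ones 0 to 1.

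Signs turned for COPS2 probe set 1 under quantile normalization (−0.36), for COPS7B probe set 2 with centring on bright probe sets (−0.0084), and for single arrays left out in COPS6 probe set 1 (−0.12 to 3.05) and COPS7B probe set 2 (−0.092 to 0.17). Centring on the nonspecific controls was chosen after seeing the data and moved the median of all probe sets to 0.28 with all 23 and to 0.63 with that of 20 G or C bases. With all 23, the member median was 0.66, and COPS2 probe set 2 turned to 0.23, COPS4 probe set 2 to 0.14, COPS8 probe set 5 to 0.10 and probe set 6 to 0.060. With that of 20 bases, the member median was 1.01. Of the 19 member probe sets 6 were higher and 0 lower past the bound, beside 13833 and 87 of all 40914. An adjusted p under 0.05 from limma held for 3 members, and the share of all at that level was not counted. COPS2 probe set 2 turned to 0.58, COPS4 probe set 2 to 0.48, COPS7B probe sets 1 and 3 to 0.23 and 0.34, and COPS8 probe sets 4, 5 and 6 to 0.33, 0.44 and 0.41. The cause of these shifts was not tested. Over all probe sets, the 481 higher and 974 lower ranged over 47 to 13833 and 87 to 7562 across alternatives.

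The replicate numbers are shared between groups, but with 2 arrays per group the data cannot show that they pair the arrays. With the replicate number as a block, 2 member probe sets were higher and 1 lower past the bound, and 505 and 669 of all. Signal over background limits the members too: 2 of the 19 probe sets exceeded the background level in all 4 arrays, as did 4.39% of all probe sets.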
